A study of Mus musculus with 8 samples.

Results

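The bone morphogenetic protein (BMP) arm of TGFβ-family signalling was examined through 10 genes of sorted microglia, taken from a count table that lists 55573 genes. The 10 were chosen by name: the type I receptors Bmpr1a, Acvr1 and Acvrl1, the type II receptor Bmpr2, the co-receptor Eng, the receptor-activated Smad1, the inhibitory Smad6 and the target genes Id1, Id2 and Id3. All 10 were found in the table and all 10 passed the filter on low counts. The RNA-seq libraries came from microglia of mice at postnatal day 60. In the SmadKO group (n = 4) both alleles of Smad2 and Smad3 were floxed and Cre was expressed from the Cx3cr1 locus (Smad2/3 fl/fl;Cx3cr1 Cre), which is active in microglia and in related macrophages. The comparison group (WT, n = 4) is labelled as wild-type littermates, but the study's methods state that controls generally carried Cre with 1 floxed allele, so the WT libraries may share Cre with the mutants. The comparison asks what happens to the BMP arm when the Smads of the TGFβ arm are targeted in microglia. The study's methods state that biological replicates came from separate mice, and the labels do not name the animal of each library.

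BMPs are secreted ligands that bring together type I and type II serine/threonine kinase receptors at the cell surface. The type I receptor then phosphorylates Smad1, Smad5 or Smad9, which join Smad4 and enter the nucleus, whereas TGFβ and activin receptors act through Smad2 and Smad3. Endoglin (Eng) is a co-receptor best known from endothelium, where it works with Acvrl1. The Id genes are classical BMP targets and encode helix-loop-helix proteins without a DNA-binding domain, which hold E proteins away from DNA. Smad6 is itself induced by BMP signalling and inhibits it.

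Each library held 35639502 to 41946479 counts. Levels are given as CPM, counts scaled to library size with TMM factors. Fold changes are SmadKO over WT on the log2 scale with standard error (SE), and a gene was called where the adjusted p of edgeR's quasi-likelihood test (Benjamini-Hochberg over 20153 tested genes) was under 0.05. Smad3 was 39.5, 56.9, 49.0 and 49.2 CPM in the WT libraries and 15.1, 9.61, 35.1 and 17.5 CPM in the SmadKO libraries, a log2 change of -1.33 (SE 0.36, adjusted p = 0.0429, edgeR). The Smad3 call was kept in 1 of the 8 fits that each left out 1 library, the fit without SmadKO replicate 3. Smad2 was 62.7 to 92.4 CPM in WT and 42.7 to 75.9 CPM in SmadKO and was not called (-0.34, adjusted p = 0.340). These counts cover whole genes, so they do not show whether the floxed exons were lost. The groups also differed in a sex-linked way: Xist was 99.5 to 183 CPM in WT and at most 0.56 CPM in SmadKO, and Ddx3y was at most 0.22 CPM in WT and at least 9.74 CPM in SmadKO, so genotype and sex cannot be told apart in these libraries. Of 8 microglial markers, 7 were called lower in SmadKO, and their summed level was 29572 to 44734 CPM in WT and 5709 to 7974 CPM in SmadKO. Of 7 border macrophage markers, 5 were called higher, with summed levels of 52.8 to 99.1 CPM in WT and 1632 to 2537 CPM in SmadKO.

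The 3 Id genes rose together in the SmadKO microglia, Smad6 rose as well, and Eng, Acvr1 and Smad1 fell, while Bmpr1a, Acvrl1 and Bmpr2 were not called. Of the 10 genes, 4 were thus called higher and 3 lower. Over all tested genes 4.36% were called higher, 7.97% lower and 12.3% in either direction. Libraries of the 2 groups did not overlap for 7 of the 10 genes, against 22.1% of all tested genes. The median log2 change of the 10 was 0.02 and that of all tested genes 0.01. In sorted cells analysed in bulk, a change in the share of cells that express a gene and a change in RNA per cell cannot be told apart.

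**Figure D1:**
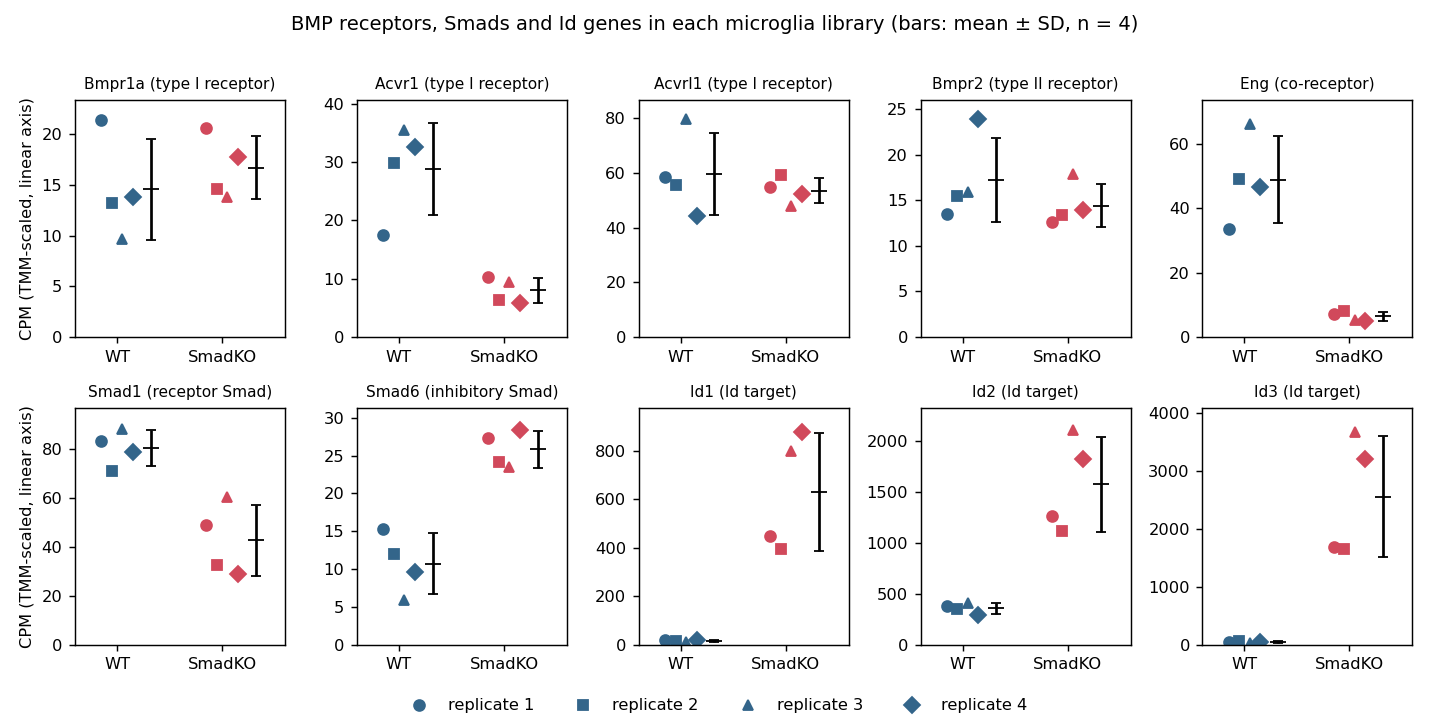
TMM-scaled CPM (linear axis from 0, its own scale in each panel) of the 10 genes in the 4 WT (blue) and 4 SmadKO (red) libraries, with marker shape giving the replicate number and black bars the mean ± SD. The groups separate fully for Acvr1, Eng, Smad1, Smad6, Id1, Id2 and Id3 and overlap for Bmpr1a, Acvrl1 and Bmpr2.

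Id3 showed the largest rise of the 10 genes. Id3 (ENSMUSG00000007872, GRCm38 chr4:136143497-136145755, plus strand) was 46.5, 59.5, 25.3 and 50.5 CPM in WT replicates 1 to 4 and 1693, 1648, 3681 and 3208 CPM in SmadKO replicates 1 to 4. Every SmadKO library lay far above every WT library. The means were 45.4 ± 14.5 and 2557 ± 1043 CPM (SD, n = 4 each), a 56.3-fold difference and a log2 change of 5.81 (SE 0.42, 95% interval 4.86 to 6.77, adjusted p = 7.84e-05, edgeR). Among all tested genes it ranked 29 by size of rise.

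Id1 behaved in the same direction. Id1 (ENSMUSG00000042745, GRCm38 chr2:152736251-152737410, plus strand) was 19.0, 16.1, 10.7 and 16.8 CPM in WT and 450.4, 393, 802 and 880.1 CPM in SmadKO. The mean went from 15.7 ± 3.54 to 631 ± 245 CPM, a 40.3-fold difference (log2 change 5.33, SE 0.36, 95% interval 4.53 to 6.14, adjusted p = 6.32e-05, edgeR), and the gene ranked 44 by rise. Within the mutants, replicates 3 and 4 stood above replicates 1 and 2, as they did for Id3.

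Id2 was the Id gene that WT microglia already expressed at a high level. Id2 (ENSMUSG00000020644, GRCm38 chr12:25093799-25097140, minus strand) was 376, 351, 406 and 288 CPM in WT and 1261, 1116, 2107 and 1827 CPM in SmadKO. It rose 4.44-fold, from 355 ± 50.1 to 1578 ± 468 CPM (log2 change 2.15, SE 0.24, 95% interval 1.61 to 2.69, adjusted p = 0.000639, edgeR). SmadKO replicates 3 and 4 were again the highest libraries. When each library was left out in turn, the log2 change stayed between 5.59 and 5.98 for Id3, 5.13 and 5.50 for Id1 and 1.98 and 2.29 for Id2, and all 3 genes were called in 8 of 8 fits.

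Because the 3 rises were unequal, the make-up of the Id pool differed between groups. Levels of different genes were compared per kilobase of exon (CPM per kb). Exon length was that of all annotated exons of a gene merged, which can exceed the length of the transcript expressed. Comparisons between genes rest on these lengths, and other lengths were not tried. In WT, Id2 made up 73.5% to 87.7% of the summed CPM per kb of the 3 genes, Id3 7.45% to 17.5% and Id1 4.86% to 9.001%. In SmadKO, Id3 made up 51.1% to 56.9%, Id2 22.7% to 28.0% and Id1 19.1% to 23.0%. The group ranges of all 3 shares were apart. The summed level was 161 to 197 CPM per kb in the WT libraries and 1716 to 3611 CPM per kb in the SmadKO libraries. The shares were alike in SmadKO replicates 1 and 2 (sums of 1851 and 1716 CPM per kb) and SmadKO replicates 3 and 4 (3611 and 3299 CPM per kb), although the sums were not.

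**Figure D2:**
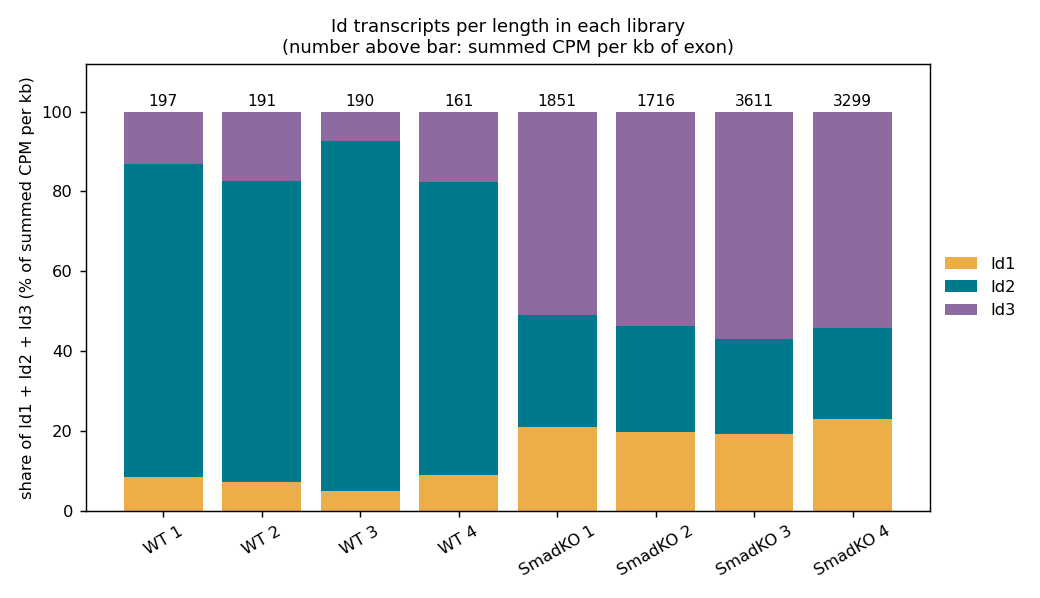
Share of Id1 (yellow), Id2 (teal) and Id3 (purple) in their summed CPM per kb of exon for each library, in percent, with the sum printed above each bar. Id2 fills at least 73.5% of every WT bar and Id3 at least 51.1% of every SmadKO bar.

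A further family member, Id4, was looked up after the values of the others were seen. Id4 was 4.39 to 40.7 CPM in WT and 11.4 to 45.6 CPM in SmadKO (log2 change 0.40, SE 0.62, 95% interval -0.99 to 1.80, adjusted p = 0.724, edgeR). The groups overlapped, and the interval leaves room for a rise of moderate size but not for one as large as that of Id1 or Id3.

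Promoter sequence was read for the windows from 250 bases before the RefSeq start up to that start (GRCm38.p6), which were given for 8 of the 10 genes and not for Id1 and Acvrl1. Known Smad sequences were searched on both strands. The GC-rich element GGCGCC is bound by Smad1 and Smad5 and reads alike on both strands. The Smad box was taken as GTCTG or, on the other strand, CAGAC. The composite was the GC-rich element followed, after any 5 bases, by the first 4 letters of the Smad box, so each composite also counts as a GC-rich element. The GC-rich element lay in 3 of the 8 windows, those of Bmpr1a, Bmpr2 and Id2, and in 9.59% of 32851 RefSeq windows of that length. Those 3 windows hold 36, 22 and 18 CpG dinucleotides in that order, against a median of 6 over all windows. The part of base composition in these matches was not tested. The Smad box lay in 2 of the 8, those of Eng and Id3, and in 42.2% of all windows. The composite was in 0 of the 8 and in 0.0700% of all windows. At so low a rate, 8 windows cannot show whether it is missing from these genes, and sequence beyond 250 bases was not searched. The windows lie outside annotated exons only for Eng and Smad6. GENCODE M21 places annotated exon over all 250 bases of the window for Id3, Acvr1 and Bmpr2 and over 161 bases for Id2, so those windows start within longer gene models. Of the genes that rose, the stretches with a match are shown here because Id2 and Id3 are the Id genes with a window, with the match in capitals and 10 bases on each side, read 5′ to 3′ on the gene's strand. The stretches are chr12:25096308-25096333 on the minus strand for Id2, chr4:136143645-136143669 for the first and chr4:136143744-136143768 for the second of Id3, both on the plus strand.
Id2, GC-rich element 231 bases before the start: aggccccctgGGCGCCcagcgcacac
Id3, Smad box on the other strand 167 bases before the start: tcctcggcgtCAGACcagcctaagg
Id3, Smad box 68 bases before the start: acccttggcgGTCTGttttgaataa

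Among the Smads, the inhibitor and the transducer moved in opposite directions. Smad6 (ENSMUSG00000036867, GRCm38 chr9:63953076-64022059, minus strand), which blocks type I receptors and Smad1, was 15.4, 12.03, 5.85 and 9.66 CPM in WT and 27.4, 24.2, 23.5 and 28.4 CPM in SmadKO. It was 2.41-fold higher in the mutants, at 25.9 ± 2.43 against 10.7 ± 4.00 CPM (log2 change 1.27, SE 0.28, 95% interval 0.63 to 1.91, adjusted p = 0.0201, edgeR). The SmadKO libraries were close together, without the split between replicates seen for the Id genes. The call was kept in 8 of 8 fits with 1 library left out, with adjusted p up to 0.0496.

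Smad1 (ENSMUSG00000031681, GRCm38 chr8:79338395-79399518, minus strand), a transducer of BMP receptors, was 83.2, 70.9, 88.2 and 78.8 CPM in WT and 48.8, 32.4, 60.2 and 28.8 CPM in SmadKO. Its mean was 80.3 ± 7.34 CPM in WT and 42.5 ± 14.6 CPM in SmadKO (log2 change -0.92, SE 0.24, 95% interval -1.46 to -0.37, adjusted p = 0.0386, edgeR). Every SmadKO library was below every WT library. The call was a weak one: it held in 1 of 8 fits with 1 library left out, that without SmadKO replicate 3, with adjusted p from 0.0161 to 0.101 over the 8, and scaling by library totals gave adjusted p = 0.0516. SmadKO replicate 3 was also the mutant library with the most Smad3. A link between the Smad3 and Smad1 levels of that library was not tested.

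The upstream stretch of Smad6 is shown because Smad6 is the Smad among the 10 genes that rose and because its window holds no annotated exon. It lies at chr9:64022060-64022309 on the minus strand (GRCm38.p6, from RefSeq), holds 27 CpG dinucleotides against a median of 6 over all windows, and has none of the 3 sequences searched, so no base is in capitals.
Smad6, 250 bases before the start: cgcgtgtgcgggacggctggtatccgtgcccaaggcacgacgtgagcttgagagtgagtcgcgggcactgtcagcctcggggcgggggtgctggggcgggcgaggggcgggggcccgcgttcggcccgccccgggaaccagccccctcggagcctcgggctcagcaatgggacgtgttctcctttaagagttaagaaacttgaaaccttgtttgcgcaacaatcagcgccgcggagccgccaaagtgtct

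Of the 4 signalling receptors, Acvr1 was called lower and the other 3 were not called. Bmpr1a (ENSMUSG00000021796, GRCm38 chr14:34410734-34503341, minus strand), a main BMP type I receptor, was 21.5, 13.2, 9.68 and 13.8 CPM in WT and 20.7, 14.6, 13.8 and 17.8 CPM in SmadKO. Its log2 change was 0.20 (SE 0.27, 95% interval -0.41 to 0.81, adjusted p = 0.686, edgeR), and the groups overlapped. Bmpr2 (ENSMUSG00000067336, GRCm38 chr1:59763400-59879014, plus strand), the BMP type II receptor, was 13.5, 15.5, 16.0 and 23.9 CPM in WT and 12.6, 13.4, 17.9 and 13.9 CPM in SmadKO. The log2 change of Bmpr2 was -0.25 (SE 0.23, 95% interval -0.78 to 0.27, adjusted p = 0.524, edgeR), again with overlapping groups.

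Acvrl1 and Acvr1 are both type I receptors and differed in outcome. Acvrl1 (ALK1, ENSMUSG00000000530, GRCm38 chr15:101128522-101145336, plus strand) was 58.6, 55.7, 79.9 and 44.2 CPM in WT and 54.9, 59.2, 47.8 and 52.4 CPM in SmadKO. Its log2 change was -0.15 (SE 0.19, 95% interval -0.59 to 0.28, adjusted p = 0.653, edgeR), and it was 0.020 without WT replicate 3, the highest library. Acvr1 (ALK2, ENSMUSG00000026836, GRCm38 chr2:58388644-58567157, minus strand), which transmits signals of several BMPs, was 17.6, 29.8, 35.5 and 32.6 CPM in WT and 10.3, 6.42, 9.44 and 5.88 CPM in SmadKO. Acvr1 was 3.61-fold lower in the mutants, at 8.01 ± 2.18 against 28.9 ± 7.89 CPM (log2 change -1.85, SE 0.29, 95% interval -2.504 to -1.20, adjusted p = 0.00365, edgeR), with no overlap and a call in 8 of 8 fits with 1 library left out.

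Eng fell most of the 10 genes. Eng (ENSMUSG00000026814, GRCm38 chr2:32646595-32682669, plus strand) was 33.5, 48.9, 66.3 and 46.6 CPM in WT and 7.09, 8.08, 5.35 and 5.02 CPM in SmadKO. The mean went from 48.8 ± 13.5 to 6.39 ± 1.45 CPM, a 7.65-fold difference (log2 change -2.93, SE 0.27, 95% interval -3.53 to -2.33, adjusted p = 0.000215, edgeR), and the call was kept in 8 of 8 fits with 1 library left out. Eng and Acvrl1 are also endothelial genes. Of 14 endothelial markers listed, 10 were tested and 0 were called by edgeR. Pecam1, at 5.12 to 13.3 CPM in WT and 0.605 to 5.01 CPM in SmadKO, was the 1 with an unadjusted p under 0.05 and the 1 that DESeq2 called. The summed level of the 14 was 42.6 to 76.2 CPM in WT and 55.4 to 75.7 CPM in SmadKO, Emcn was at 0 in all WT libraries and Tek was at most 0.028 CPM in any library, whereas Ly6c1 was 9.07 to 21.9 CPM in WT and 11.4 to 22.9 CPM in SmadKO, and Kdr was 2.96 to 10.2 and 1.81 to 5.99 CPM. Of the 50-base stretches of Ly6c1, 32.8% are shared with other genes, mainly Ly6c2, a marker on the monocyte and neutrophil list. Some Ly6c1 counts could therefore belong to Ly6c2. The part of endothelial RNA in the Eng and Acvrl1 levels was not tested.

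The Eng window is shown because Eng is the member with the largest fall and its window, chr2:32646345-32646594 on the plus strand (GRCm38.p6, from RefSeq), holds no annotated exon. Capitals mark the Smad box, on the other strand 214 bases and on the gene's strand 127 bases before the start, and the window holds 4 CpG dinucleotides.
Eng, 250 bases before the start: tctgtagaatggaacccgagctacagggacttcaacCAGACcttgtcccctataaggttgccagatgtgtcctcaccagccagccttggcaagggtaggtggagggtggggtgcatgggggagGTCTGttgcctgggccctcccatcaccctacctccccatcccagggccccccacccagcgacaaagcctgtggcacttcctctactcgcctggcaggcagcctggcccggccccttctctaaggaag

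Exons of Bmpr1a, Acvrl1 and Eng overlap those of Gm17110, Gm16031 and Fpgs by 4.6%, 3.0% and 1.5% of their length, so a small part of their counts could belong to those genes, as the kit is described as unstranded. The other 7 genes share no exon with an annotated gene.

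Per kilobase of exon, WT microglia held Id2 at the top (146 ± 20.5 CPM per kb), followed by Id3 (25.4), Acvrl1 (14.0), Id1 (13.5), Smad1 (12.8), Eng (12.1), Acvr1 (5.98), Smad6 (3.35), Bmpr1a (2.29) and Bmpr2 (0.958 CPM per kb). Neighbours in that order were apart in their 4 libraries only between Id2 and Id3, Eng and Acvr1, and Bmpr1a and Bmpr2. In SmadKO the order of the same levels was Id3 (1428), Id2 (647), Id1 (544), Acvrl1 (12.6), Smad6 (8.07), Smad1 (6.79), Bmpr1a (2.63), Acvr1 (1.66), Eng (1.58) and Bmpr2 (0.803 CPM per kb). There the neighbours that overlapped were Id2 and Id1, Smad6 and Smad1, and Acvr1 and Eng. Acvrl1 was thus the highest of the 5 receptor transcripts among the 10 genes in both groups by mean CPM per kb, with Eng next among the 5 in WT and just above Bmpr2 in SmadKO.

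The other inhibitory Smad went the opposite way from Smad6. Smad7, which inhibits both TGFβ and BMP receptors and is a classical TGFβ target, was 86.1, 96.2, 123 and 119 CPM in WT and 14.1, 22.6, 44.5 and 32.6 CPM in SmadKO (log2 change -1.90, SE 0.33, adjusted p = 0.00620, edgeR). Per kb of exon the ratio of Smad7 to Smad6 was 3.97 to 14.9 in WT and 0.365 to 1.34 in SmadKO. The ranges of that ratio did not overlap.

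To place the 10 genes in their pathway, 63 further genes were followed by role: ligands, antagonists, other receptors, Smads, modulators, targets and Id partners. Of these, 49 passed the filter, 4 were called higher, 5 lower and 40 were not called, and the median log2 change was 0.14. The shares called higher (4 of 49) and lower (5 of 49) stand beside 4.36% and 7.97% of all tested genes. Counts were 0 in all libraries for Bmp10, Gdf2, Cer1 and Hamp, which allows at most 0.0839 CPM in a library (3 counts, counting error only).

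**Figure D3:**
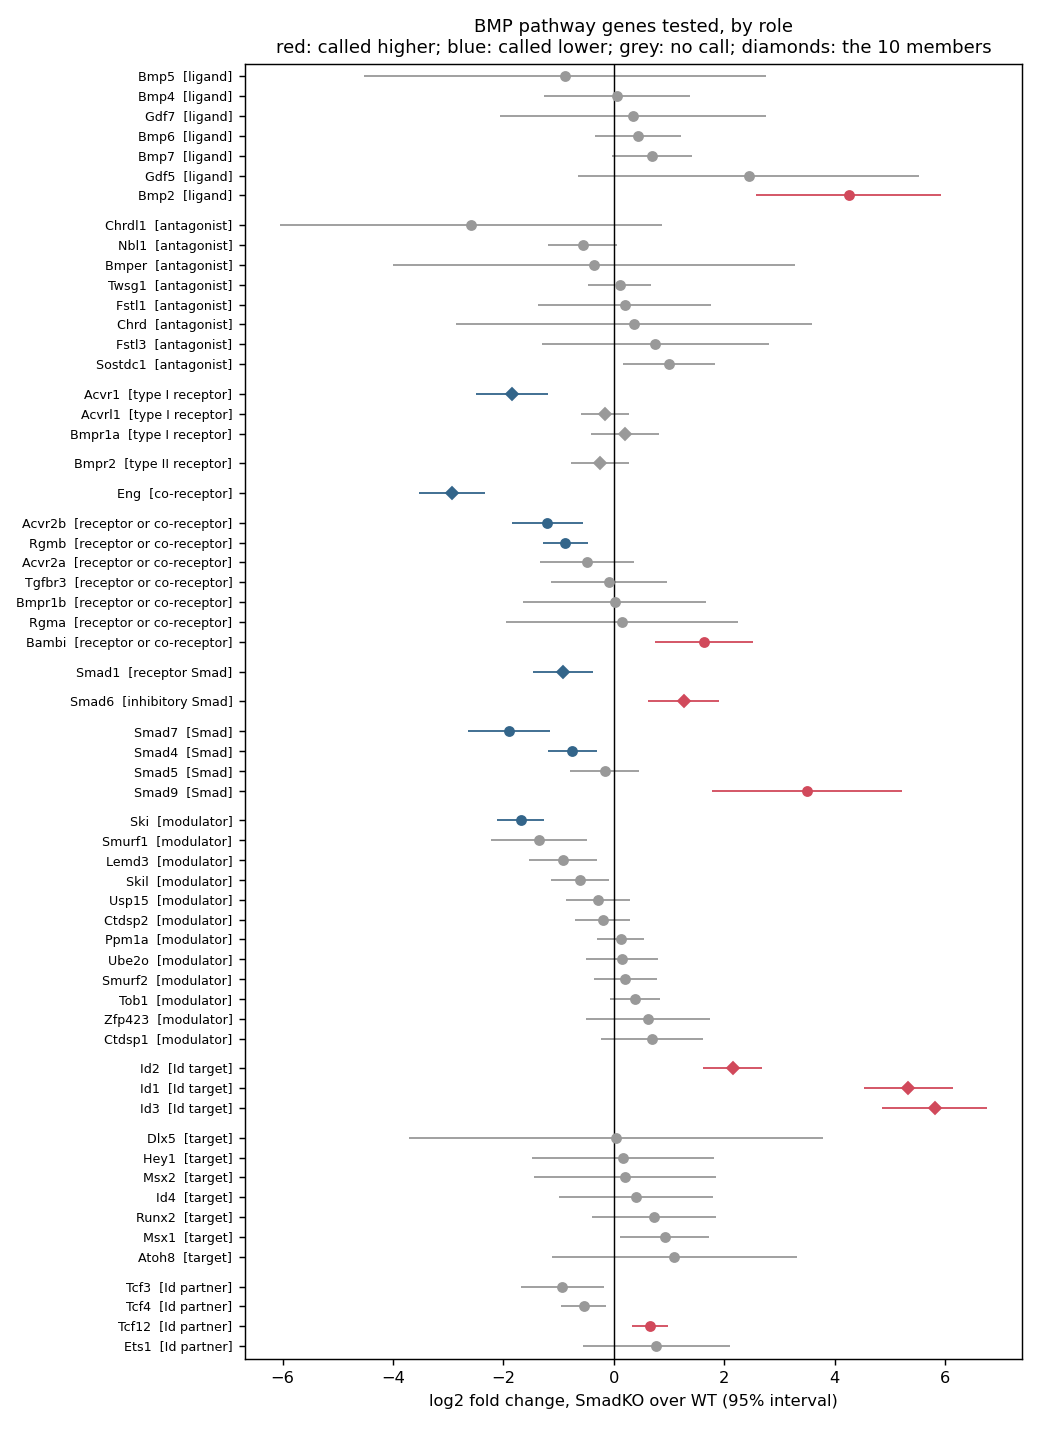
Log2 fold change of SmadKO over WT with 95% interval for each tested BMP pathway gene, grouped by role; red was called higher, blue lower and grey not called, and diamonds are the 10 genes of the report. The 3 Id diamonds lie at 2.15 to 5.81, whereas each of the 7 other target genes is grey.

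Of the 13 ligands, 7 were tested and 1 was called. Bmp2, which encodes a BMP ligand, was 0.10, 1.80, 1.04 and 1.59 CPM in WT and 11.8, 15.4, 37.7 and 21.7 CPM in SmadKO. It was 19.1-fold higher (log2 change 4.26, SE 0.74, adjusted p = 0.00626, edgeR), from a low WT level of 4 to 69 counts in a library. With 4 counts in WT replicate 1, Bmp2 passed the filter on low counts only because of the SmadKO libraries. Bmp7, the uncalled ligand with the highest mean CPM over all 8 libraries, had WT and SmadKO means of 20.1 and 32.6 CPM (log2 change 0.70, adjusted p = 0.188, edgeR).

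Of 14 antagonists, 8 were tested and 0 were called by edgeR. Sostdc1 was the 1 of them that did not overlap between groups, had an unadjusted p under 0.05 and was called (higher) by DESeq2. Sostdc1, a secreted BMP and Wnt antagonist, was 47.5 to 176 CPM in WT and 216 to 358 CPM in SmadKO (log2 change 1.001, unadjusted p = 0.024 and adjusted p = 0.113, edgeR). Markers of choroid plexus epithelium, a list added after the values were seen, moved alongside: their summed level was 7377 to 25460 CPM in WT and 25927 to 42765 CPM in SmadKO, 0 of 5 were called by edgeR, with 3 at an unadjusted p under 0.05 and 1 (Ttr) called by DESeq2, and the lowest WT library for Ttr, Sostdc1 and the target Msx1 was in each case replicate 3. WT replicate 3 was also the lowest WT library for 4 of the 10 genes (Bmpr1a, Smad6, Id1 and Id3) and for Id4. The same library was the highest in WT for Acvr1, Acvrl1, Eng, Smad1 and Id2, so it differed in both directions. The part of choroid plexus RNA in these results was not tested.

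Of 8 other receptors and co-receptors, 7 were tested. Bambi, a pseudoreceptor that dampens BMP and TGFβ receptors, was 10.2, 21.5, 25.2 and 17.6 CPM in WT and 35.5, 33.3, 81.8 and 81.2 CPM in SmadKO (log2 change 1.64, SE 0.39, adjusted p = 0.0268, edgeR). Its mutant libraries split as the Id genes did, with replicates 3 and 4 above 1 and 2, and the call was lost in 5 of the 8 fits with 1 library left out, those without WT replicates 1, 2 or 4 or SmadKO replicates 3 or 4 (adjusted p up to 0.0668). Acvr2b, a type II receptor for activins and BMPs, was 24.8 ± 4.86 CPM in WT and 10.8 ± 4.21 CPM in SmadKO (log2 change -1.20, SE 0.29, adjusted p = 0.0268, edgeR), a call kept in 2 of those 8 fits, without WT replicate 1 or SmadKO replicate 3, with adjusted p up to 0.0779 in the others. Rgmb, a BMP co-receptor of the repulsive guidance family, fell from 105 ± 20.4 to 57.3 ± 7.79 CPM (log2 change -0.88, SE 0.18, adjusted p = 0.0140, edgeR) and was called in 8 of 8. Tgfbr3, which had the highest mean CPM of those not called (not corrected for length), had means of 9.96 and 9.37 CPM.

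Smad9 and Smad5 are receptor-activated Smads of the same arm as Smad1. Smad9 was low throughout, at 0.10 to 0.59 CPM in WT and 1.19, 3.76, 2.03 and 7.40 CPM in SmadKO (log2 change 3.50, SE 0.76, adjusted p = 0.0180, edgeR), and its call was lost without WT replicate 2 or WT replicate 3 (adjusted p up to 0.0608). Its WT level was 4 to 22 counts in a library, and it passed the filter on low counts only because of the SmadKO libraries. Smad5 had means of 26.3 and 23.5 CPM and was not called (log2 change -0.17, 95% interval -0.79 to 0.46, adjusted p = 0.753, edgeR), an interval that overlaps that of Smad1. Smad4, the partner shared by both arms, fell from 99.9 ± 13.6 to 59.4 ± 12.9 CPM (log2 change -0.75, SE 0.20, adjusted p = 0.0368, edgeR), a call lost under scaling by library totals (adjusted p = 0.0700) and in 5 of the 8 fits, kept without WT replicate 4, SmadKO replicate 1 or SmadKO replicate 3 and at an adjusted p of up to 0.0920 otherwise.

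Of the 12 modulators, Ski was the 1 called by edgeR, and DESeq2 called Smurf1 and Lemd3 lower as well. Ski, a nuclear co-repressor that binds Smads, fell from 160 ± 37.8 to 49.7 ± 3.02 CPM (log2 change -1.68, SE 0.19, adjusted p = 0.000683, edgeR) and was called in 8 of 8 fits with 1 library left out. Smurf1, a ubiquitin ligase that acts on Smads and receptors, and Lemd3, an inner nuclear membrane protein that binds Smads, were looked at after their values were seen. Smurf1 had means of 31.5 and 12.2 CPM without overlap (log2 change -1.36, SE 0.38, adjusted p = 0.05 after rounding, edgeR, and not under the threshold). Lemd3 had means of 18.1 and 9.56 CPM, also without overlap (log2 change -0.92, SE 0.28, adjusted p = 0.0606, edgeR). Skil, a relative of Ski and the uncalled modulator with the highest mean CPM (not corrected for length), had means of 173 and 113 CPM (log2 change -0.61, adjusted p = 0.122, edgeR).

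Of the 7 tested targets other than Id1, Id2 and Id3, 0 were called by edgeR, 1 (Msx1) had an unadjusted p under 0.05 and was called by DESeq2, and all 7 had a positive log2 change, with a median of 0.40. Msx1, a homeobox target with the highest mean CPM of them, was 45.5 to 167 CPM in WT and 193 to 276 CPM in SmadKO (log2 change 0.92, adjusted p = 0.126, edgeR). Among 4 proteins that Ids bind, the E protein gene Tcf12 rose from 21.4 ± 1.15 to 33.8 ± 3.02 CPM (log2 change 0.66, SE 0.14, adjusted p = 0.0182, edgeR), a call lost without WT replicate 2 (adjusted p = 0.0599). Of the 2 other E protein genes, Tcf4, with the highest mean CPM of the 4 (not corrected for length), had means of 162 and 111 CPM (log2 change -0.54, adjusted p = 0.0840, edgeR). Tcf3, added after its values were seen, had means of 61.8 and 32.4 CPM (log2 change -0.93, SE 0.33, adjusted p = 0.104, edgeR). DESeq2 called Tcf12 higher and both Tcf3 and Tcf4 lower, and for Tcf3 and Tcf4 these were calls by DESeq2 alone.

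The size and direction of the 7 calls among the 10 genes varied little with the library set and the processing. Of the 7, 6 were called in all 8 fits with 1 library left out and under the other tool, scalings, filters and block, and Smad1 was the exception described above. Bmpr1a, Acvrl1 and Bmpr2 were called in none of these fits.

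**Figure D4:**
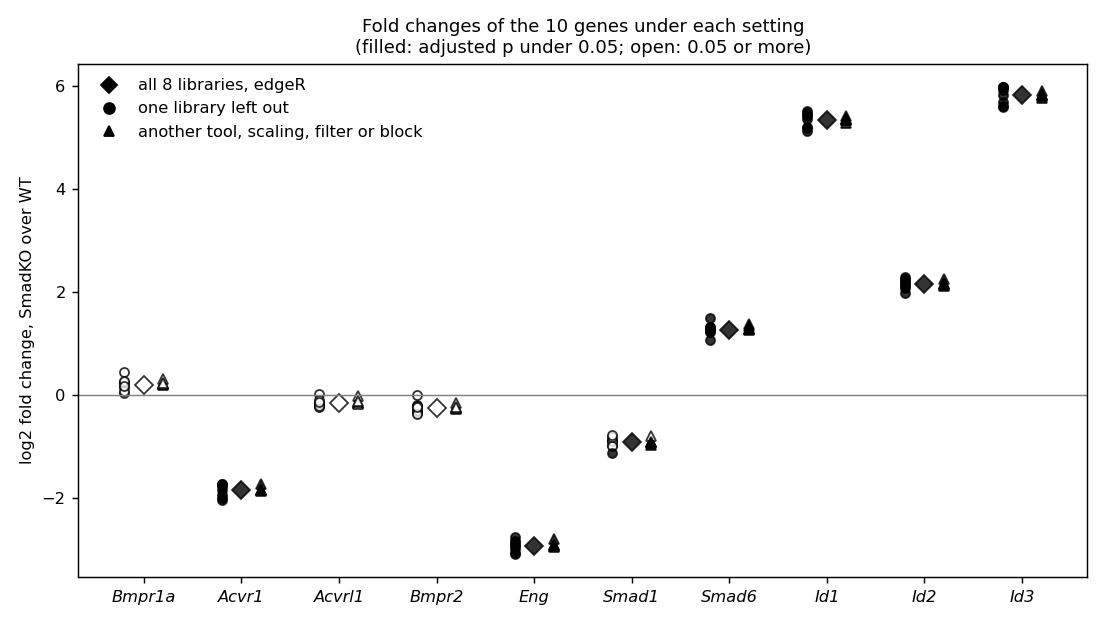
Log2 fold change of SmadKO over WT for each of the 10 genes with all libraries (diamond), with 1 library left out (circles, left) and with another tool, scaling, filter or block (triangles, right); filled symbols have an adjusted p under 0.05. Id1, Id2, Id3, Smad6, Acvr1 and Eng are filled throughout, Smad1 is open in 7 of 8 circles, and Acvrl1 has 1 circle just above 0, at 0.020.

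The microglial and border macrophage marker lists, and the summed choroid plexus markers, moved with the same groups as the Id genes, Smad6, Acvr1 and Eng, and the sex-linked genes did too. The part of these marker shifts in the changes was not tested, and sex and genotype cannot be told apart here. Of 5 other brain and blood cell lists, the summed levels in WT and SmadKO were 16.6 to 30.8 and 11.8 to 19.6 CPM for mural cells, 1425 to 2427 and 341 to 1258 CPM for astrocytes, 30.1 to 286 and 83.6 to 279.5 CPM for neurons, 707 to 4503 and 1164 to 3795 CPM for oligodendrocytes, and 474 to 1658 and 267 to 818 CPM for monocytes and neutrophils. Of these lists, 1 of 5 tested mural markers (Pdgfrb) and 1 of 6 astrocyte markers (Slc1a3) were called lower, and of the other 3 lists 0 markers were called by edgeR, 0 by DESeq2 and 0 had an unadjusted p under 0.05.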

How the data were processed

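Microglia were purified over Percoll and sorted by flow cytometry before RNA extraction. The labels describe Nextera XT libraries that are unstranded and single-end, whereas the study's methods describe a polyA kit with paired ends, and the count columns name the first read only. The authors aligned reads with Rsubread to mm10 and deposited raw counts per gene from featureCounts. The aligner version, annotation and strand setting are not given in the sources used here. A second deposited table holds the authors' own DESeq2 comparison (fold changes, p-values) and was not used. A different deposit is named in the methods for Smad2/3 microglia, and genotype and cell type were the grounds for taking these files as that experiment.

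A gene was tested when 4 or more of the 8 libraries reached 10 counts (20153 genes). The test was made in edgeR 4.0.16 (R 4.3.3) with TMM scaling (factors 0.874 to 1.11) and Benjamini-Hochberg adjustment. The quasi-likelihood fit covered all 8 libraries (biological coefficient of variation 0.542). The scripts were tested on simulated counts in which 200 genes changed by 2 on the log2 scale. There edgeR called 47.6% of the changed genes tested and DESeq2 62.4%. Unchanged genes made up 4.26% of edgeR calls and 33.7% of DESeq2 calls. Calls by DESeq2 alone (such as Sostdc1, Msx1, Smurf1, Lemd3, Tcf3, Tcf4, Pecam1 and Ttr) are therefore weaker. SE is the absolute log2 change over the square root of F. Symbols, positions and exon lengths came from GENCODE M21 (55394 of 55573 IDs matched). Promoters came from RefSeq tables. Libraries of a group differed beyond sampling noise, the lowest chi-square per gene being 107.

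All 10 genes were named. Of the other pathway genes, those called and the uncalled gene of each role with the highest mean CPM were named, and others are marked as seen first. The members and lists were chosen with earlier results of these data known, so no list is independent support. Alternatives were DESeq2 1.42.0, RLE size factors, library totals, no filter, at least 10 counts in all 8 libraries, a replicate block and leaving out each library.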

Additional observations from a re-analysis of the deposited data

Results flagged for a closer look

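Tcf12, an E protein gene whose product Id proteins bind, had 1 library far from the others of its group: SmadKO replicate 3 was at 38.3 CPM and the other 3 SmadKO libraries at 31.9 to 32.6 CPM. The gap was 0.890 of the group's range, above Dixon's critical value at the 95% level for 4 samples. Chance alone places about 1 in 20 groups past that value. With this library left out, the Tcf12 call was kept (adjusted p = 0.0497, edgeR).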

How the results depend on the processing

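Of 292 single-gene values under an alternative, 255 kept direction and side of the threshold, 36 kept direction but lost the call, and 1 changed sign: Acvrl1, which was not called, was at 0.020 on the log2 scale without WT replicate 3 (its range with 1 library left out was -0.23 to 0.020). Leaving out 1 library at a time, the members called higher numbered 4 to 4 and lower 2 to 3, the other pathway genes called higher 1 to 4 and lower 3 to 6, and all genes called higher 525 to 1024 and lower 1005 to 1587. The counts over all genes moved by more than 1.5 times without WT replicate 2 (525 higher, 1047 lower) and WT replicate 3 (562 higher, 1005 lower), and for higher calls without SmadKO replicate 2 (573). The lowest pathway counts came without WT replicate 2 (1 higher, 3 lower), and 3 were called lower also without WT replicate 3 or SmadKO replicate 2. With DESeq2, 6 other pathway genes were called higher, 9 lower and 1903 of all genes higher. With at least 10 counts in all 8 libraries, 2 other pathway genes were called higher, of 38 tested. Bmp2 and Smad9, both called higher in the main fit, did not pass that filter. Scaling by library totals moved the median log2 change of all genes by 0.12 and left 2 members called lower. The cause of these changes was not tested, beyond the smaller number of genes or libraries where a setting removes some.

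The labels number replicates 1 to 4 in both groups but do not say that a number marks a litter or day. Deviations of same-numbered libraries from their group means correlated at 0.166, 0.018, 0.144 and 0.114, and 3 of 4 WT and 3 of 4 SmadKO libraries correlated best with their own number, a hint from the data and not from the design. With the number as a replicate block, 4 members were called higher and 3 lower, 4 and 7 of the other pathway genes, and 886 and 1497 of all genes.

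Depth and spread limit the uncalled genes: with 4 libraries a group and a biological coefficient of variation of 0.542, the 95% intervals run from -0.41 to 0.81 for Bmpr1a, -0.78 to 0.27 for Bmpr2 and -0.59 to 0.28 for Acvrl1.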
